A study of Mus musculus with 12 samples.

Results

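The genes described here encode the core and naive pluripotency transcription factors of the mouse: Pou5f1, Nanog, Sox2, Klf2, Klf4, Esrrb, Tfcp2l1, Tbx3, Zfp42 and Prdm14. They were picked by gene symbol from a list of such factors, and all 10 were found in both deposited tables, out of 45801 genes listed in either table. The study compared RNA from mouse blastocysts and embryonic stem (ES) cells that were labelled Dis3L KO or Dis3L WT, which gives 4 groups of 3 samples each. Dis3l encodes a ribonuclease subunit of the cytoplasmic RNA exosome, which digests transcripts from the 3′ end. Blastocysts were collected from hormone-stimulated, mated females 96 h after the injection of hCG, and each library was made from 1 embryo by tagmentation of cDNA. ES cells were grown with serum and 500 IU/ml of the cytokine LIF after derivation on inactivated mouse embryonic fibroblasts, and their libraries were stranded and depleted of ribosomal RNA. The kind of Dis3l allele, the strain, the sex and whether the ES cell samples of a genotype are separate lines are not given in the sources used here, so for ES cells the p-values measure only the spread between those samples.

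POU5F1 (also called OCT4), SOX2 and NANOG form the core of the pluripotency network: POU5F1 and SOX2 bind DNA side by side at a composite element, and NANOG binds many of the same enhancers. KLF2, KLF4, ESRRB, TFCP2L1 and TBX3 are naive factors, which keep the network active in the preimplantation epiblast and in ES cells, partly as outputs of LIF and WNT signalling. ZFP42 (REX1) is a classical marker of the naive state, and PRDM14 represses genes of differentiation and of the primed state. In a blastocyst these genes are not all read from the same cells: Nanog, Sox2 and Prdm14 mark the inner cell mass and epiblast, whereas Tfcp2l1, Esrrb, Klf4 and Zfp42 can also be transcribed in trophectoderm.

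Promoter windows from RefSeq (build GRCm38.p6), running from 250 bases before to 50 bases after a transcription start, were matched to 8 of the 10 genes by symbol. Windows of 4 genes are shown, because Nanog and Klf2 had, among factors with reads in every blastocyst count column, the widest swings between columns, and Sox2 and Zfp42 moved together there. Capitals mark matches on either strand to ATGCAAA, 7 bases of the octamer site of POU5F1, called the octamer part below. In Nanog they also mark the SOX part CATTGT that lies 1 base from it.
Nanog, chr6:122707239-122707538, plus strand: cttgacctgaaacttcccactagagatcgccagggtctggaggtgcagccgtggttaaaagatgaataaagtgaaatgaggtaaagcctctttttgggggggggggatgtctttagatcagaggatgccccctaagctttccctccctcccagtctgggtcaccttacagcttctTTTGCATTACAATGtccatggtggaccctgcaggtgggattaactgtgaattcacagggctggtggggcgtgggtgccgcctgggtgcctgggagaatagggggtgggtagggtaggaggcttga
Klf2, chr8:72318812-72319111, plus strand: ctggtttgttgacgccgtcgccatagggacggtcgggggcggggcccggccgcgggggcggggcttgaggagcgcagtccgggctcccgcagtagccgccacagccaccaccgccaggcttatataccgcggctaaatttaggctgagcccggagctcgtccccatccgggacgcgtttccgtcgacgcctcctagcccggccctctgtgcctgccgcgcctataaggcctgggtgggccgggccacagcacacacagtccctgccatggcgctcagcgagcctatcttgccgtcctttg
Sox2, chr3:34649745-34650044, plus strand: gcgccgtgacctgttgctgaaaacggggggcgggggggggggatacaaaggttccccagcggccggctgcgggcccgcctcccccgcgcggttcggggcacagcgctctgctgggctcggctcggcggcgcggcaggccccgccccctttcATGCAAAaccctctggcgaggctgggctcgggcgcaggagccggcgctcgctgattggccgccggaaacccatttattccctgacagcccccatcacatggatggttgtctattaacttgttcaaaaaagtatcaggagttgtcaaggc
Zfp42, chr8:43306960-43307259, minus strand: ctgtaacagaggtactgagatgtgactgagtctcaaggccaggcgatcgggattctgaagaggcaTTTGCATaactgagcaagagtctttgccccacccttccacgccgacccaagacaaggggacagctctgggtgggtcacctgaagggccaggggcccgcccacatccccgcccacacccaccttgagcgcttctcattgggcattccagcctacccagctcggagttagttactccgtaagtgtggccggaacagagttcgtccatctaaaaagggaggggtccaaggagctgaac
The Klf2 window holds none of the motifs searched and has no capitals. The Nanog window holds the octamer part and the SOX part next to each other in reverse complement, beginning 75 bases before the start. Of 32851 promoter windows of this length in the table, 2 hold that composite (CATTGTNATGCAAA, both strands), and these are the overlapping windows of Nanog itself. The octamer part alone, counted with the composite, is in 4.63% of all windows and in 4 of the 11 windows of the pluripotency genes (both windows of Nanog, and those of Sox2 and Zfp42). It begins 99 bases before the Sox2 start and, in reverse complement, 185 bases before the Zfp42 start. No window of the 8 genes holds TCAAGGTCA, an ESRRB element, which is in 0.423% of all windows, or the STAT element TTCCNGGAA, which is in 1.15%. These are matches of letters in short windows and were not tested for binding.

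The deposited tables hold a mean, a log2 fold change and a test per gene, and no value per library. The mean is a sum of whole reads weighted by library depth, so the reads behind it could be solved for most genes. This gave 6 count columns for blastocysts, 3 on each side of the comparison. For ES cells it gave 4 columns, 2 on each side, although the labels list 6 ES cell samples. A column on the positive side raises a gene's log2 fold change. Which genotype stands on which side is not given, so columns are named by side and number and were not assigned to a genotype, and signs are given as deposited. Gene coordinates are those of the tables, on GRCm38, and all 10 genes are protein-coding. Read numbers below are normalised by the authors' size factors unless called raw. Over the genes whose reads were solved up to a mean of 300 in blastocysts and 350 in ES cells, the columns held 564033 to 1316603 and 631855 to 1036240 raw reads. Without molecular identifiers, copies made in amplification are counted as separate reads, so limits drawn from read numbers cover counting error only. Of the read numbers above 0, 94.7% to 97.1% were even in the blastocyst columns and 48.7% to 50.2% in the ES cell columns, so a blastocyst read number may stand for fewer independent fragments. Dis3l itself had 26, 8 and 0 raw reads on the positive side against 10, 4 and 8 on the negative side in blastocysts, and 14 and 8 against 39 and 39 in ES cells.

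Neither label was contradicted by markers. All 10 trophectoderm and all 10 primitive endoderm markers had reads in blastocysts, while 7 of 10 fibroblast and 4 of 6 oocyte markers were listed at 0. In ES cells all 10 pluripotency factors and all 10 fibroblast markers had reads. Summed fibroblast reads were 576 and 511 on the positive side against 539 and 2020 on the negative side, so negative-side column 2 of the ES cells held the most feeder-type RNA. In bulk RNA, fewer cells of a type and less RNA per cell cannot be told apart.

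In blastocysts, Nanog, Pou5f1 and Klf2 were lower on the positive side, by more than 1 on the log2 scale, whereas Sox2, Esrrb, Tfcp2l1 and Zfp42 had log2 fold changes near 0. None of the 10 factors passed the threshold of an adjusted p under 0.05 in the Wald test of DESeq2, and 0.0986% of the 15209 genes tested did (15 genes). At an unadjusted p under 0.05 there were 2 factors, Nanog and Pou5f1, both negative, beside 6.21% of all genes tested. The log2 fold change was below 0 for 7 of the 10 factors, beside 51.7% of all genes, with a median of −0.42 against −0.04 over all genes tested in the authors' deposited table. Every positive-side column lay below every negative-side column for 1 factor, Klf2, beside 6.47% of genes with a mean of at least 10 and solved reads.

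Nanog (ENSMUSG00000012396, chr6:122707489-122714633) is the homeobox factor that sets apart the epiblast within the inner cell mass. Positive-side columns 1 to 3 held 197, 65.0 and 9.14 normalised reads of Nanog, and negative-side columns 1 to 3 held 518, 185 and 331. The highest column was 56.7 times the lowest, and the sides overlapped only through positive-side column 1, which lay just above negative-side column 2. Nanog had, in the authors' deposited table, a log2 fold change of −1.93 ± 0.73 (SE), adjusted p = 0.546. The 9.14 normalised reads of positive-side column 3 stood for 8 raw reads, beside 838 raw reads in negative-side column 1. Without positive-side column 3 the log2 ratio of the reads was −1.40, and without positive-side column 1 it was −3.22. Among 3377 genes with a mean within a factor of 2 of that of Nanog, 98.4% had a smaller coefficient of variation over the 6 columns.

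Pou5f1 (ENSMUSG00000024406, chr17:35506018-35510772) encodes the POU factor without which the inner cell mass does not become pluripotent. Column by column it had 248, 131 and 99.4 normalised reads on the positive side against 367, 227 and 515 on the negative side. The negative side was higher except that positive-side column 1 again lay between negative-side columns 2 and 1. The log2 fold change of Pou5f1 was −1.21 ± 0.48 (SE), adjusted p = 0.609 in the authors' deposited table. It stayed negative without any 1 of the columns, between −1.68 and −0.90 as the log2 ratio of reads.

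Sox2 (ENSMUSG00000074637, chr3:34650405-34652461), the HMG-box partner of POU5F1, did not share this pattern. It had 136, 36.5 and 77.7 normalised reads on the positive side against 49.5, 114 and 83.4 on the negative side. The sides overlapped fully, with the highest and the lowest column both on the positive side. Sox2 had a log2 fold change of 0.03 ± 0.70 (SE) in the authors' deposited table, and its 95% interval runs from −1.34 to 1.39. Sox2 lies inside the noncoding gene Sox2ot on the same strand but shares no exonic base with it.

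**Figure D1:**
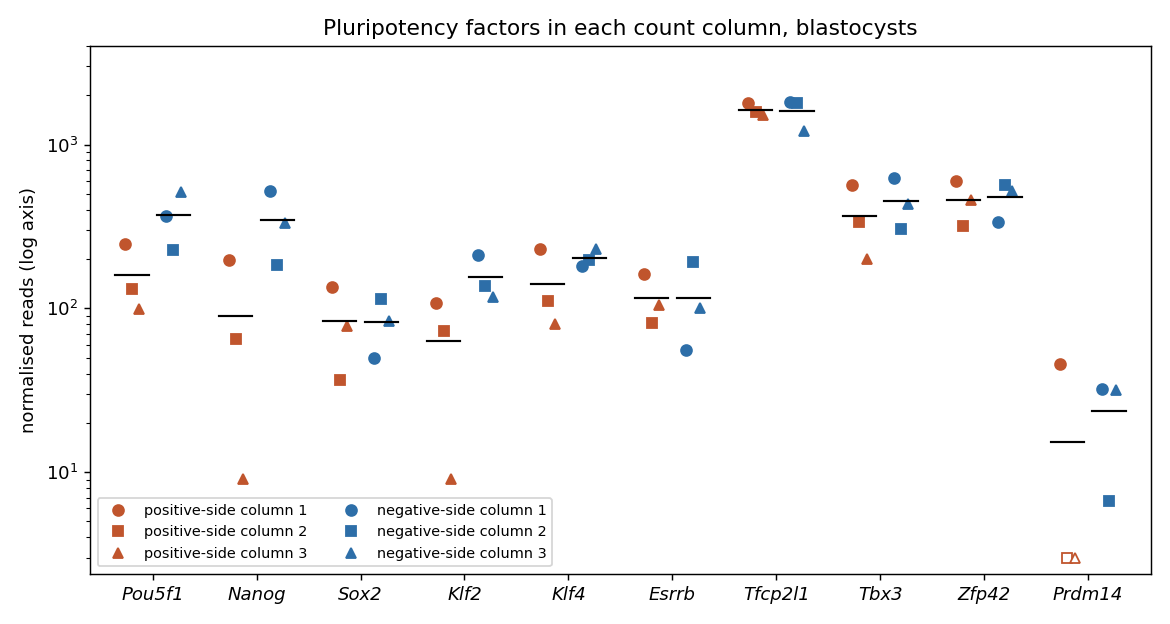
Normalised reads of the 10 pluripotency factors in the 6 blastocyst count columns, on a log axis. Orange symbols are the positive-side and blue symbols the negative-side columns, symbol shape gives the column number, black lines are the means of a side, and open symbols at the foot of the axis are 0 reads. Nanog and Klf2 fall to 9.14 in positive-side column 3, while Tfcp2l1 stays between 1203 and 1826 in every column.

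The 2 Krüppel-like factors of the list maintain naive pluripotency, and either can take over part of the work of the other. Klf2 (ENSMUSG00000055148, chr8:72319033-72321656) had 109, 73.1 and 9.14 normalised reads on the positive side against 212, 136 and 118 on the negative side. The sides did not overlap, but the gap between positive-side column 1 and negative-side column 3 was small beside the spread within a side. Klf2 had, in the authors' deposited table, a log2 fold change of −1.28 ± 0.74 (SE), adjusted p = 0.811. Without positive-side column 3, which held 8 raw reads of Klf2, the log2 ratio was −0.77. Klf4 (ENSMUSG00000003032, chr4:55527143-55532466) had 230, 112 and 80.0 normalised reads on the positive side against 181, 198 and 230 on the negative side. Its negative-side columns were close together, and positive-side column 1 was as high as the highest of them. The log2 fold change of Klf4 in the authors' deposited table was −0.53 ± 0.52 (SE).

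Esrrb, Tfcp2l1 and Tbx3 are naive factors downstream of WNT, LIF and the core factors. Esrrb (ENSMUSG00000021255, chr12:86361117-86521628), an orphan nuclear receptor, had 161, 81.2 and 105 normalised reads on the positive side against 55.7, 192 and 101 on the negative side. Its lowest and highest columns were both on the negative side, and its log2 fold change in the authors' deposited table was 0.00 ± 0.62 (SE). Tfcp2l1 (ENSMUSG00000026380, chr1:118627945-118685168), a CP2-family factor, had the most reads of the 10 factors: 1790, 1585 and 1515 on the positive side against 1826, 1802 and 1203 on the negative side. It also varied least, its highest column being 1.52 times its lowest. For Tfcp2l1 the authors' deposited table gave a log2 fold change of 0.02 ± 0.27 (SE), and a 95% interval from −0.51 to 0.55. Tbx3 (ENSMUSG00000018604, chr5:119670669-119684724), a T-box factor, had 563, 339 and 199 normalised reads on the positive side against 628, 303 and 432 on the negative side. The sides overlapped, with the extremes on opposite sides, and the log2 fold change was −0.31 ± 0.45 (SE) in the authors' deposited table. Pou5f1 and Tbx3 each share exonic bases with an antisense gene, 317 with Gm19553 and 115 with Tbx3os1, and the means of those genes in the authors' deposited table were 1.01 and 0.96, far below those of the factors.

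Zfp42 (ENSMUSG00000051176, chr8:43295068-43307009), a zinc finger gene of the YY1 family, had 600, 317 and 459 normalised reads on the positive side against 338, 564 and 524 on the negative side. Each side held 1 low column, and the log2 fold change in the authors' deposited table was −0.05 ± 0.38 (SE). Prdm14 (ENSMUSG00000042414, chr1:13113457-13127163) had 45.7, 0 and 0 normalised reads on the positive side against 32.2, 6.69 and 31.6 on the negative side. Column 1 of the positive side had the most Prdm14 and the other positive-side columns had none. A count of 0 allows up to 3 independent fragments, which can be more raw reads where most read numbers are even. With 64, 0 and 0 raw reads against 52, 6 and 22, Prdm14 had the widest error of the list, a log2 fold change of −0.62 ± 1.76 (SE) in the authors' deposited table.

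The factors also differed in which columns were low or high. Positive-side column 3 was the lowest of the 6 columns for Pou5f1, Nanog, Klf2, Klf4 and Tbx3, and positive-side column 2 for Sox2, Zfp42 and Prdm14 (tied with column 3 at 0). All 10 factors were below their own mean in both of these columns, at a median of 65.9% of the mean in column 2 and 47.5% in column 3. The share of all genes below their mean in these columns was not computed, so that count has nothing to be set against. Over genes of any kind with a mean of at least 50, positive-side columns 2 and 3 were the lowest column of 12.7% and 21.3%. Positive-side column 1 held the highest Sox2, Zfp42 and Prdm14, at 131% of the mean in the median over the factors, so the positive side was not low in all of its columns. In positive-side column 3, Nanog and Klf2 were at 4.20% and 8.36% of their means, while Sox2, Esrrb, Tfcp2l1 and Zfp42 were between 90.7% and 98.4%. Negative-side column 1 was the reverse case, with Nanog at 238% and Klf2 at 193% of their means but Sox2 at 59.8%, Esrrb at 48.0% and Zfp42 at 72.3%.

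**Figure D2:**
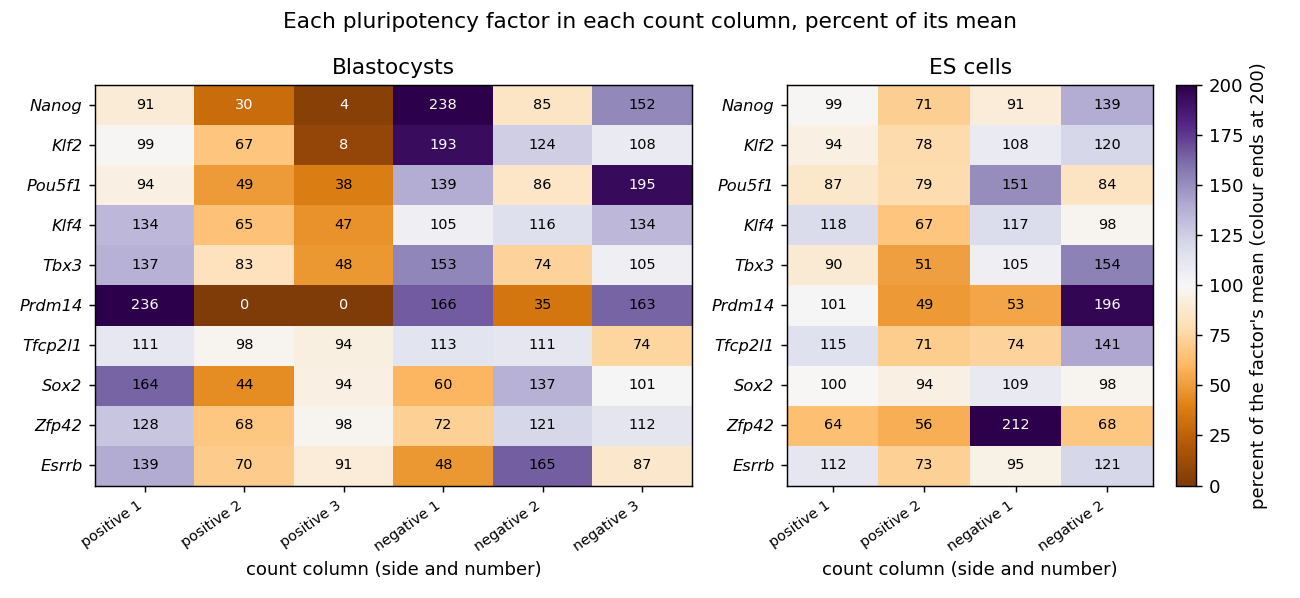
Normalised reads of each factor in each count column as a percent of that factor's mean, for blastocysts and ES cells. Rows are factors and columns are count columns by side and number, orange is below and purple above the mean. In blastocysts Nanog, Klf2, Pou5f1, Klf4 and Tbx3 are lowest in positive-side column 3, where Sox2, Zfp42, Esrrb and Tfcp2l1 stay above 90% of their means.

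Likeness to Nanog was described by Pearson's r of log2(normalised reads + 1) over the 6 blastocyst columns, among 6001 other genes with a mean of at least 50 and solved reads. These columns share their size factors and are few, and 3.28% of the genes had an r above 0.9. Klf2 (r = 0.97), Pou5f1 (0.90), Klf4 (0.90) and Tbx3 (0.87) were like Nanog, whereas Tfcp2l1 (0.13), Sox2 (0.09), Zfp42 (0.07) and Esrrb (−0.11) were not. Prdm14, with a mean of 19.4, is below the limit of 50. Its r with Nanog was 0.85, with 0 reads in positive-side columns 2 and 3. Without positive-side columns 2 and 3, the 2 farthest from the median of Nanog, r was 0.76 for Klf2, 0.72 for Pou5f1 and 0.60 for Tbx3, but −0.50 for Klf4, so the likeness of Klf4 rests on those columns. Over the same 4 columns r with Nanog was −0.97 for Sox2, −0.92 for Zfp42 and −0.995 for Esrrb, so the values near 0 for these factors rest on the 2 columns as well. Sox2, Zfp42 and Esrrb were like each other instead. Over the 6 columns r was 0.98 for Sox2 with Zfp42, 0.85 for Sox2 with Esrrb and 0.86 for Esrrb with Zfp42. Prdm14 reached 0.91 with Klf4 and 0.89 with Pou5f1. No share of all genes is set beside the r of these pairs, and none is given with columns left out. Among the other genes most like Nanog were Acer1 (an alkaline ceramidase), Nxn (nucleoredoxin), Aurka (the mitotic kinase Aurora A) and Got2 (a mitochondrial aminotransferase), with r from 0.988 to 0.992. Aurka, the most abundant of these, had 607, 426 and 137 normalised reads on the positive side against 918, 555 and 875 on the negative side. That order of columns was the same as for Nanog, although the range was narrower.

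Marker sums for the other lineages of the embryo moved with these columns in part. Trophectoderm markers, summed over the 6 of 10 whose reads were solved, were at 3858, 5225 and 6299 normalised reads on the positive side against 3573, 4864 and 3300 on the negative side. The sum was highest in positive-side column 3, the column with the least Nanog and the least Pou5f1. It was lowest in negative-side column 3, which held the most Pou5f1, whereas Nanog was highest in negative-side column 1. Primitive endoderm markers, summed over 6 of 10, ran from 2564 to 3257 on the positive side and from 2517 to 4388 on the negative side, with the highest sum in negative-side column 2. The 10 pluripotency factors together summed to 4079, 2739 and 2554 on the positive side against 4207, 3728 and 3568 on the negative side. Reads of the abundant trophectoderm genes Krt8, Krt18 and Gata3, with means of 5505, 7678 and 2072, were not solved and are left out of the sum. Their log2 fold changes in the authors' deposited table were −0.87, −0.63 and 0.52, of mixed sign. The unadjusted p of the Wald test was 0.0146, 0.0289 and 0.0419, and none passed adjustment. The part of lineage proportions in the fold changes was not tested.

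Levels of different genes were compared as normalised reads per kilobase of exons. In blastocysts the order was Zfp42 (248 per kilobase), Tfcp2l1 (172), Pou5f1 (118), Nanog (97.0), Tbx3 (62.0), Klf2 (59.2), Klf4 (56.3), Sox2 (40.2), Esrrb (19.2) and Prdm14 (7.55). Sox2 was above Esrrb in 6 of 6 columns, and the neighbours from Nanog to Klf4 kept this order in only 3 or 4 of 6 columns, so they did not differ beyond their spread. ES cells gave another order: Pou5f1 (428 per kilobase), Sox2 (236), Nanog (235), Tfcp2l1 (171), Zfp42 (151), Esrrb (123), Klf4 (93.5), Klf2 (63.4), Tbx3 (40.8) and Prdm14 (18.8). Pou5f1 led in 4 of 4 ES cell columns, Sox2 exceeded Nanog in 3 of 4, and Zfp42 exceeded Esrrb in 1 of 4, the column with the most Zfp42. Sox2 and Esrrb, near the foot of the blastocyst order, stood at places 2 and 6 in ES cells, and Zfp42 went from place 1 to place 5. The tables were normalised apart and come from different library types, so only the order within a table can be read.

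In ES cells, all 10 factors had log2 fold changes below 0, from −0.69 for Tbx3 to −0.08 for Sox2 in the authors' deposited table. None passed an adjusted p under 0.05 in the Wald test of DESeq2, which 0.261% of the 10739 genes tested did (28 genes). At an unadjusted p under 0.05 there was 1 factor, Tbx3, beside 5.62% of all genes. A log2 fold change below 0 was found for 50.0% of all genes, and the median was −0.34 over the 10 factors and 0.00 over all genes tested in the authors' deposited table. Every positive-side column lay below every negative-side column for 3 factors (Klf2, Tbx3 and Zfp42), beside 20.8% of genes with a mean of at least 10 and solved reads. The deposited ES cell values are shrunken towards 0. Those of the listed genes came back when the fit included a normal prior on the coefficient of each side. The fold change is the difference between these coefficients. Fitted again without that prior, the median of the 10 factors was −0.42.

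All 10 factors had their lowest value in positive-side column 2, which was the lowest column of 26.0% of genes with a mean of at least 50. The highest value was in negative-side column 2 for 6 factors, in negative-side column 1 for 3 and in positive-side column 1 for Klf4. These columns were the highest of 33.1%, 21.0% and 18.7% of genes with a mean of at least 50. Without positive-side column 2 the log2 ratio was below 0 for 7 of the 10 factors, and without negative-side column 2 for 8.

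The core factors differed in how even they were. Pou5f1 had 832 and 759 normalised reads on the positive side against 1448 and 808 on the negative side, so a single negative-side column stood above the other 3. Its log2 fold change was −0.42 ± 0.24 (SE) in the authors' deposited table, and without negative-side column 1 the log2 ratio of reads was −0.02. Nanog had 521 and 375 against 481 and 731 normalised reads, where the sides overlapped and negative-side column 2 was highest. The log2 fold change of Nanog was −0.36 ± 0.24 (SE) in the authors' deposited table. Sox2, with 484 and 457 against 528 and 473 normalised reads, was the most even of the 10 factors, its highest column being 1.15 times its lowest. For Sox2 the 95% interval of the log2 fold change in the authors' deposited table ran from −0.50 to 0.34.

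Tbx3 had 242 and 138 normalised reads on the positive side against 283 and 417 on the negative side. The sides did not overlap, with positive-side column 2 lowest and negative-side column 2 highest. Tbx3 had, in the authors' deposited table, a log2 fold change of −0.69 ± 0.27 (SE), an unadjusted p of 0.00939 and an adjusted p of 0.478. A lower log2 fold change was found for 1.83% of the 10739 genes tested. Fitted without the prior, its log2 fold change was −0.87 ± 0.34 (SE).

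Zfp42 was the factor most affected by that prior. It had 182 and 161 normalised reads on the positive side against 603 and 192 on the negative side, so negative-side column 1 held more than 3 times the reads of any other column. The log2 fold change of Zfp42 was −0.51 ± 0.33 (SE) in the authors' deposited table, and −1.21 ± 0.78 (SE) without the prior. Without negative-side column 1 the log2 ratio was −0.17. Among 1893 genes with a mean within a factor of 2 of that of Zfp42, 99.7% had a smaller coefficient of variation over the 4 columns.

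**Figure D3:**
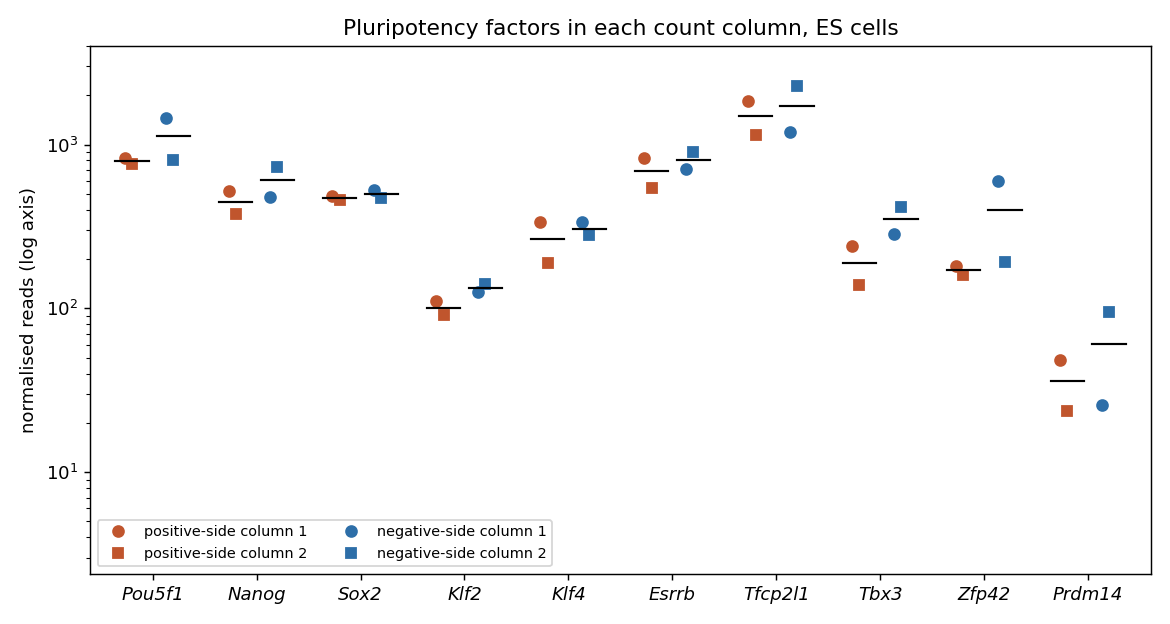
Normalised reads of the 10 pluripotency factors in the 4 ES cell count columns, on a log axis. Orange symbols are the positive-side and blue symbols the negative-side columns, symbol shape gives the column number, and black lines are the means of a side. Sox2 stays between 457 and 528, while Zfp42 stands at 603 in negative-side column 1 and between 161 and 192 elsewhere.

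The other factors were highest in negative-side column 2 or in neither side alone. Prdm14 had 48.7 and 23.7 against 25.7 and 94.7 normalised reads, with a log2 fold change of −0.38 ± 0.33 (SE) in the authors' deposited table. Negative-side column 2 stood above the other 3 columns for Prdm14, and without it the log2 ratio turned to 0.50. Tfcp2l1 had 1851 and 1139 against 1192 and 2269 normalised reads, and its log2 ratio turned to 0.33 without the same column. Esrrb had 832 and 541 against 706 and 901 normalised reads, and Klf4 had 337 and 190 against 335 and 279. For both, positive-side column 2 was the low one, and without it the log2 ratios were 0.05 and 0.13. Log2 fold changes of these 3 factors in the authors' deposited table were −0.17 ± 0.26 (SE) for Tfcp2l1, −0.19 ± 0.23 (SE) for Esrrb and −0.17 ± 0.26 (SE) for Klf4. Klf2 had 110 and 90.9 against 127 and 141 normalised reads, sides that did not overlap but lay close, with a log2 fold change of −0.32 ± 0.27 (SE) in the authors' deposited table. Negative-side column 2 was the highest column of 6 factors, beside 33.1% of genes with a mean of at least 50. It was also the column with the highest sum of fibroblast markers, 2020 normalised reads. Negative-side column 1, where Pou5f1, Sox2 and Zfp42 were highest, had a fibroblast sum of 539, between those of the positive-side columns. Trophectoderm markers, summed over the 6 of 10 whose reads were solved, were at 219 and 212 against 314 and 269 normalised reads. That sum leaves out Fgfr2, which was not solved and whose mean of 2353 is far above the sum. The log2 fold change of Fgfr2 was 0.03 in the authors' deposited table. Primitive endoderm markers, summed over 7 of 10, were at 439 and 416 against 427 and 536. The part of feeder RNA or of these other cells in the differences was not tested.

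**Figure D4:**
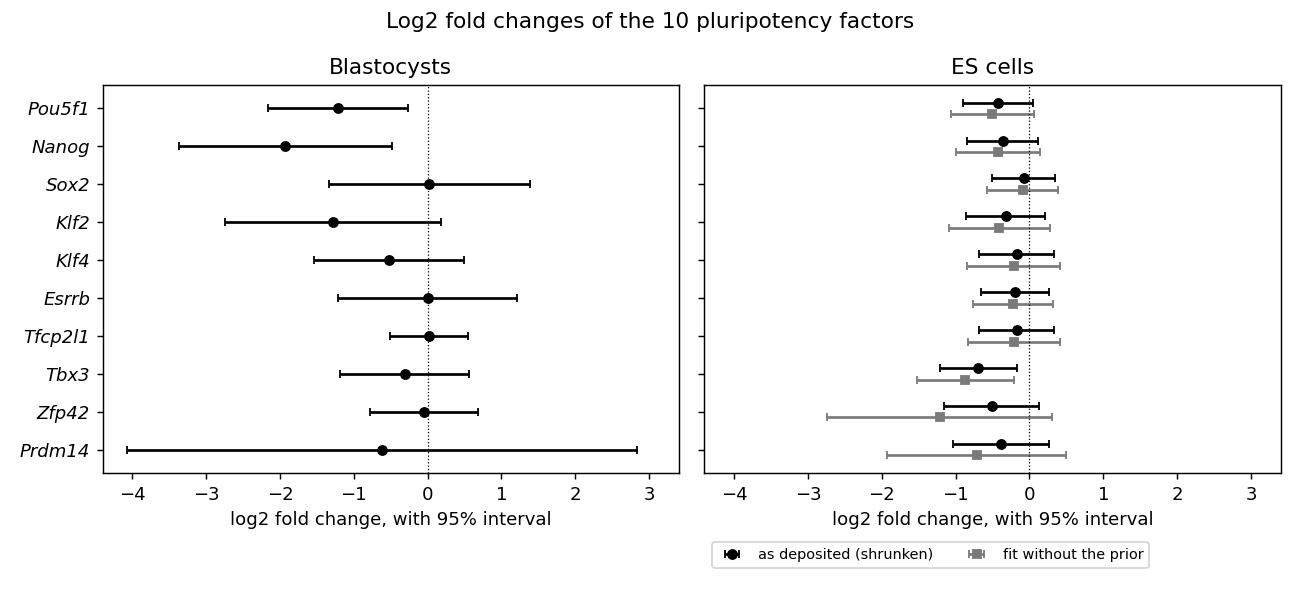
Log2 fold changes of the 10 pluripotency factors with 95% intervals, for blastocysts and for ES cells on the same axis. Black circles are the values of the authors' deposited tables, and grey squares are the ES cell values fitted again without the prior. The blastocyst intervals of Nanog and Pou5f1 and the ES cell interval of Tbx3 leave out 0 before adjustment for the number of genes tested.

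Set side by side, the materials put different factors at the low end. Nanog and Pou5f1 were among the lowest log2 fold changes in blastocysts, at −1.93 and −1.21, and −0.43 and −0.50 in ES cells without the prior. Zfp42 and Tbx3 were lowest in ES cells without the prior, at −1.21 and −0.87, and were at −0.05 and −0.31 in blastocysts in the authors' deposited table. Sox2 had the highest log2 fold change of the 10 factors in both, within 0.1 of 0. The materials are in separate tables with no shared model, and a difference between them was not tested.

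The pathway lists around the factors held 66 genes, of which 59 were tested in blastocysts and 57 in ES cells. None passed an adjusted p under 0.05 in either material, against 0.0986% of all genes tested in blastocysts and 0.261% in ES cells. An unadjusted p under 0.05 was found for 7 of the 59 and 7 of the 57, against 6.21% and 5.62% of all genes tested. The median log2 fold change over the lists together was, in the authors' deposited table, 0.16 for blastocysts and −0.09 for ES cells.

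LIF and STAT3 signalling keeps ES cells naive through STAT3, which acts upstream of Klf4 and Tfcp2l1. In blastocysts 7 of its 8 genes had a log2 fold change above 0 and the other, Jak1, was at 0.00, while 51.7% of all genes tested were below 0. Only Lif had an unadjusted p under 0.05 in the Wald test, and none passed adjustment. The median of the 8 genes was 0.76 in the authors' deposited table, opposite in sign to the median of the 10 factors. Lif, the ligand, had 136, 150 and 197 normalised reads on the positive side against 61.8, 95.9 and 23.0 on the negative side. The sides did not overlap, and the log2 fold change of Lif was 1.41 ± 0.62 (SE), adjusted p = 0.710 in the authors' deposited table. The receptor gene Lifr was at 1.19, the shared receptor subunit Il6st at 0.91, the feedback inhibitor Socs3 at 1.09 and Stat3 itself at 0.13, all as log2 fold changes of the authors' deposited table. The receptor-bound kinase genes Jak2, Tyk2 and Jak1 were at 0.61, 0.41 and 0.00 in the authors' deposited table, and the log2 ratio of reads of Jak1 was slightly below 0, at −0.00061. In ES cells, which were given LIF in the medium, 3 of 8 were above 0, with a median of −0.04 and values from −0.29 for Lif to 0.12 for Tyk2 in the authors' deposited table. Of the WNT and TCF axis, 6 of 8 genes in blastocysts and 4 of 7 tested in ES cells were above 0, and none had an unadjusted p under 0.05. Among these with a mean of at least 50, the extremes in blastocysts were Gsk3b (0.75), the kinase that marks beta-catenin for destruction, and the WNT target Axin2 (−0.85), as log2 fold changes of the authors' deposited table. In ES cells they were Apc (0.05), a partner of that kinase, and Ctnnb1 (−0.15), which encodes beta-catenin, on the same scale of the authors' deposited table.

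Targets of the core factors were, of the 5 lists, the one with a median below 0 in blastocysts. There 13 of 20 had a log2 fold change below 0, with a median of −0.15 in the authors' deposited table, and the 4 with an unadjusted p under 0.05 were all negative. Tdgf1, the NODAL co-receptor Cripto, had 180, 146 and 61.7 normalised reads on the positive side against 455, 241 and 610 on the negative side. The sides did not overlap, and its log2 fold change was −1.75 ± 0.50 (SE), adjusted p = 0.205 in the authors' deposited table. The neighbouring genes Dppa2 and Dppa4, which encode partner chromatin factors of early embryos, were at −1.79 and −1.96, and the small GTPase gene Mras was at −0.76, all as log2 fold changes of the authors' deposited table. Dppa2 had 208, 32.5 and 32.0 normalised reads on the positive side against 377, 156 and 411 on the negative side, so its low columns were the ones in which Nanog was low. Dppa3 (Stella), a maternal and germline protein, had the lowest log2 fold change of the list among genes with a mean of at least 50, −2.98 ± 2.25 (SE) in the authors' deposited table. It had 260, 10.1 and 0 normalised reads on the positive side against 954, 33.4 and 1142 on the negative side, a range wider than the difference between the sides. Tdh, threonine dehydrogenase, was the highest of these, at 0.21 in the authors' deposited table. In ES cells 12 of 19 targets were below 0, with a median of −0.11 in the authors' deposited table. Dnmt3l (−0.48) and Jarid2 (−0.54), which encode cofactors of DNA methylation and of the Polycomb complex, and Fbxo15 (0.62), an F-box gene, had an unadjusted p under 0.05 in the authors' deposited table. The NODAL inhibitor gene Lefty2 was lowest at −0.57 in the authors' deposited table, from 20.0 and 100 normalised reads on the positive side against 279 and 216 on the negative side.

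Other naive-state regulators were above 0 for 13 of 18 genes in blastocysts and for 4 of 17 tested in ES cells. Klf5, a Krüppel-like gene of inner cell mass and trophectoderm, had a log2 fold change of 0.59 ± 0.27 (SE) in blastocysts, and Prdm15, a zinc finger gene of the naive network, had 1.48 ± 0.71 (SE), both in the authors' deposited table and both with an unadjusted p under 0.05. Prdm15 had 143, 73.1 and 70.8 normalised reads on the positive side against 48.2, 31.2 and 23.0 on the negative side, without overlap. The lowest of this list with a mean of at least 50 was Etv5, an ETS factor, at −0.56 in the authors' deposited table. In ES cells Tfap2c, an AP-2 factor of trophectoderm and germline, had 24.7 and 38.2 normalised reads on the positive side against 7.61 and 6.76 on the negative side. The Tfap2c log2 fold change was 0.91 ± 0.33 (SE) in the authors' deposited table. Lin28a, the inhibitor of let-7 maturation, was highest among genes with a mean of at least 50, at 0.50 in the authors' deposited table.

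Formative and primed genes come up as cells leave the naive state. In blastocysts 6 of 12 were listed at 0 and 5 were tested, 4 of them above 0, and the de novo DNA methyltransferase genes Dnmt3a and Dnmt3b were at 0.07 and −0.22 in the authors' deposited table. In ES cells 6 of 12 were tested and 4 were below 0. Otx2, a homeobox factor of the formative state, had 5.59 and 0 normalised reads on the positive side against 19.0 and 21.3 on the negative side. Foxd3, a forkhead factor, had 20.8 and 7.90 against 53.2 and 34.8. Their log2 fold changes were −0.75 and −0.80 in the authors' deposited table, with an unadjusted p of 0.0151 and 0.0162. Dnmt3b (0.26) was the highest and Etv4 (−0.35), an ETS factor, the lowest with a mean of at least 50 in the authors' deposited table.

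**Figure D5:**
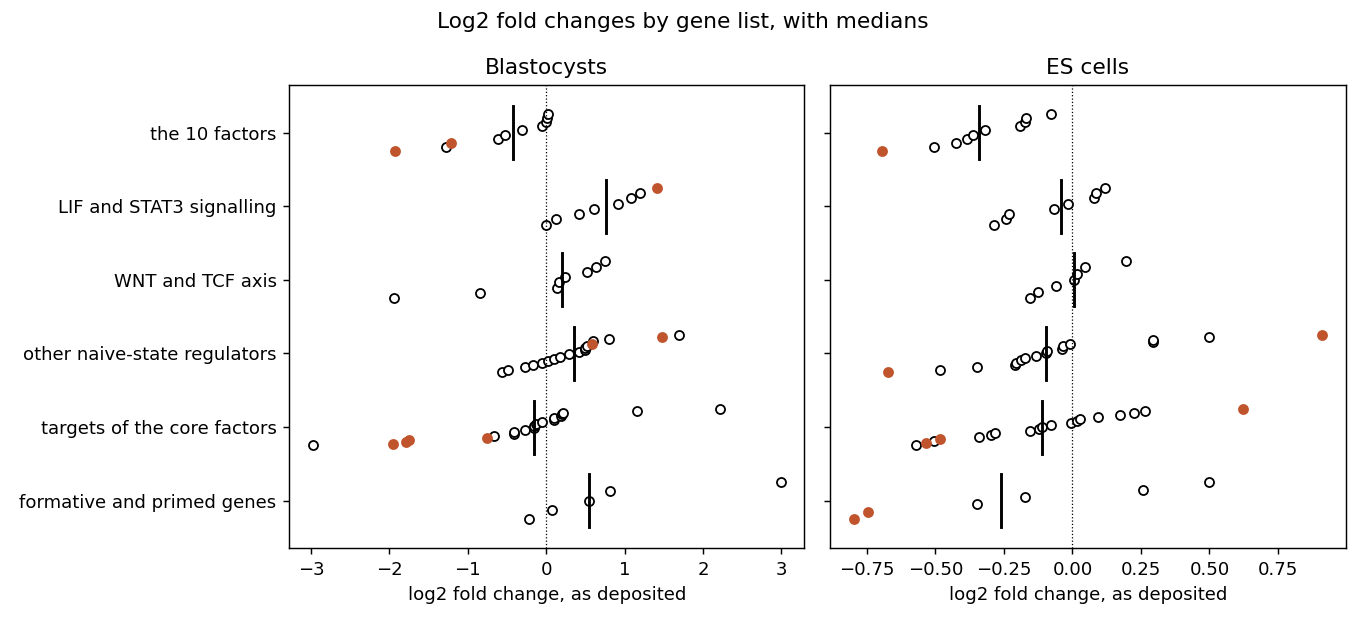
Log2 fold changes of the authors' deposited tables for the 10 pluripotency factors and for 5 gene lists of their network, in blastocysts and in ES cells, on axes of different width. Each circle is 1 tested gene, filled circles have an unadjusted p under 0.05, and vertical lines are list medians. In blastocysts the 8 LIF and STAT3 genes lie at or above 0.00, while the factors lie between −1.93 and 0.03.

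Relatives of the factors by gene name did not share their signs throughout. Of the other Klf genes, 8 of 13 tested in blastocysts and 4 of 12 in ES cells were above 0, with Klf10 (0.85) and Klf15 (−0.16) the ends in blastocysts among those with a mean of at least 50 in the authors' deposited table. In ES cells Klf12 (0.70) and Klf7 (0.66) had an unadjusted p under 0.05, and Klf13 was lowest at −0.44, in the authors' deposited table. Of the other Pou genes 9 of 15 were listed at 0 in blastocysts, and the ubiquitous Pou2f1 (OCT1) was, in the authors' deposited table, at −0.23 there and at 0.02 in ES cells. Among other Sox genes, Sox7, a primitive endoderm gene, had 198, 108 and 171 normalised reads on the positive side against 0, 46.8 and 2.88 on the negative side of the blastocyst comparison. The log2 fold change of Sox7 was 3.27 ± 1.07 (SE), adjusted p = 0.349 in the authors' deposited table, while Sox17, of the same subgroup, was at −0.16. Nanog also has processed pseudogenes, and reads of near-identical copies may be shared: Nanog-ps1 had a mean of 2.96 in blastocysts in the authors' deposited table, against 218 for Nanog.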

How the data were processed

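Reads were processed by the authors, and the submitters' processing notes name STAR 2.4.0b, bedtools, SAMtools, featureCounts, Subread 2.0.1, DESeq2 1.34.0 and the build GRCm38, without roles or order. Per the file headers, each table gives the authors' mean of normalised reads (a signal), a log2 fold change with its standard error, a Wald statistic (a score), and a p-value with its adjusted p-value. The authors' Benjamini-Hochberg values came back when recomputed over the genes with an adjusted p-value. The design had allowed for counts per sample, and the authors' own statistics were used because the tables hold none, with 0 columns of per-sample values left aside.

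Whole reads per column were solved from the mean, and for blastocysts also from the authors' log2 fold change and standard error. Each blastocyst solution had to give back the deposited log2 fold change to within 1e-08. ES cell reads were solved from the mean without that check, and only 94 listed genes were also matched to the authors' fit, with a looser limit. A unique solution was found for 14625 of 15199 blastocyst genes with means up to 300 and for 12135 of 12137 ES cell genes up to 350. For blastocyst means above 300, even read numbers were searched first. Odd ones were searched there only for factors and some listed genes without an even solution. An even solution above that mean was therefore not checked against odd numbers. All 10 factors were solved in both, and Tfcp2l1 in ES cells, with 6 solutions from its mean, by its fit. The ES cell values of the listed genes came back with a normal prior of variance 0.221 on the coefficient of each side (log2 scale). This variance was read from 57 listed genes. The solving was tested on data simulated from genes with lower means than Nanog. It was not tested at much higher means, such as that of Tfcp2l1, or for the search over even numbers. No p-value was computed across columns.

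Every factor is named. A gene of a list is named where its unadjusted p was under 0.05 or where it was highest or lowest of its list with a mean of at least 50, and the other genes of the LIF list were added after their values were seen. Some genes that meet the rules are not reported here. Factors and lists were chosen with earlier results of these data known. Exon lengths came from GENCODE M21 on GRCm38. Python 3.11.15, numpy 2.4.6, pandas 2.3.3, scipy 1.17.1 and numba 0.67.0 were used.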

Additional observations from a re-analysis of the deposited data

How the results depend on the processing

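The count of pluripotency factors with an adjusted p under 0.05 was 0 in both materials, and so was the count of genes of the 5 lists. Both counts stayed at 0 with adjustment over every gene with a p-value and over genes with a mean of at least 50. The same held for autosomal genes alone and for statistics rescaled to a robust SD of 1. A threshold of 0.01 could only give 0 as well, since none passed 0.05. At an unadjusted p under 0.05 the DESeq2 values gave 2 factors in blastocysts and 1 in ES cells. Log2 fold changes of single factors were set beside 30 other values in blastocysts and 40 in ES cells (ratios of the solved reads, other scaling, an added read and, for ES cells, a fit without the prior, which was chosen after seeing the data). All of these lay within the spread of a side, and 2 of them, in blastocysts, had the other sign. Leaving out 1 column gave 59 values in blastocysts, 10 with the other sign, and 40 in ES cells, 5 with the other sign and 7 beyond the spread of a side. Prdm14 without positive-side column 1 of the blastocysts gave no value, since the other positive-side columns are at 0. The count of factors with a negative log2 ratio of reads, 8 in blastocysts and 10 in ES cells, ranged from 6 to 9 and from 7 to 10 without 1 column (an alternative chosen after seeing the data). No paired analysis was possible because the count columns carry no replicate number. Depth limits Prdm14 most, with 0 to 64 raw reads in a blastocyst column, and the 4 ES cell columns, against 6 samples in the labels, limit every ES cell comparison.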
